A study of Mus musculus with 5 samples.

Results

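The genes described here encode 10 core subunits of the BAF chromatin-remodelling complexes, namely Arid1a, Arid1b, Arid2, Smarca4, Smarca2, Smarcb1, Smarcc1, Smarcc2, Pbrm1 and Smarce1, out of 54532 genes in the deposited table. They were chosen by name, each symbol had 1 row, and all 10 passed the filter of a mean normalized count of at least 10 that 16411 genes passed. RNA came from neurospheres, which are spheres that neural stem and progenitor cells and their progeny form in suspension, started from the postnatal day 0 hippocampus of C57BL/6 mice. The heterozygous group held 3 libraries with the genotype hGFAPCre+, Arid1b flox/+, and the control group held 2 littermate libraries with the genotype hGFAPCre+, Arid1b+/+. The medium contained EGF and FGF-2, each at 20 ng/ml, and spheres were collected at day 7. The Cre transgene, which every library carried, is driven by a human GFAP promoter that is active in neural progenitors. A floxed copy is lost only in cells that express Cre or descend from such cells. Counts per gene do not show in how many cells that was so. They may also include reads from a recombined copy that is still transcribed, and the labels do not name the floxed exon. Arid1b counts therefore measure RNA and not working copies of the gene. The 2 genotypes require different mice. Within a group nothing in the labels ties the libraries to different mice, though heterozygous replicate 2 differed from the others in sex. The p-values therefore reflect only the variation among these 5 libraries, and some of it may be technical.

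BAF complexes slide and evict nucleosomes with energy from ATP, and they open enhancers and promoters for transcription factors. A canonical BAF complex holds either ARID1A or ARID1B, and the related PBAF complex holds ARID2 and PBRM1 instead. SMARCA4 and SMARCA2 are alternative ATPases, SMARCC1 and SMARCC2 form the scaffold, and SMARCB1 and SMARCE1 belong to the core on which the complex is built. Loss of 1 copy of ARID1B in people causes Coffin-Siris syndrome and is a frequent cause of intellectual disability. The comparison here asks how RNA levels of Arid1b and of its partners differed.

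Libraries held 21136608, 25167981 and 23460074 reads in heterozygous replicates 1 to 3 and 19833803 and 25494722 reads in control replicates 1 and 2. The heterozygous libraries were alike, with a median absolute log2 difference per gene of 0.11 to 0.17 between them. Control replicate 1 stood apart, at 0.51 to 0.54 from the heterozygous libraries and 0.45 from control replicate 2, which lay at 0.27 to 0.31 from the heterozygous libraries. Heterozygous replicate 2 had 36851 Xist reads and 0 Ddx3y reads. The other libraries had 1217 to 1831 Ddx3y reads, so heterozygous replicate 2 differed from them in sex. Xist reads in those libraries ran from 1 to 301, with the 301 in heterozygous replicate 3. All 12 markers of neural stem and progenitor cells were detected, with summed normalized counts of 200569 to 230655 in heterozygous libraries and 165808 and 182249 in controls. That sum is carried by abundant genes such as Vim (log2 fold change 0.75, limma adjusted p = 0.0952) and does not stand for the list. In 8 of the 12 the heterozygous libraries all lay below the controls and in 2 above them, the median log2 fold change was -0.49, and limma called Hes5 alone, as lower (-1.49, adjusted p = 0.0475). Sox2 was at -0.63, Sox9 at -0.52 and Pax6 at -1.08 without passing. Nes (log2 fold change 1.21), like Vim, lay above both controls in all heterozygous libraries, and Fabp7 was at 0.75 with overlapping groups. Nes and Fabp7 did not pass in limma either. Of all tested genes, 23.3% lay below both controls in all heterozygous libraries and 23.4% above them. Microglial markers summed to 67.1, 338 and 387 in heterozygous libraries and 55.9 and 108 in controls.

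Arid1a and Arid1b are paralogues, and their balance is a result below, so the stretch in which they are most alike is shown first. It is the pair of 120-base windows, each within 1 exon of the longest annotated coding sequence, that match best without gaps. Capitals mark the 21 bases that differ, and the other 99 (82.5%) are identical. The Arid1b window lies in exon 20 at chr17:5342215-5342334 on the + strand, and the Arid1a window in exon 20 at chr4:133681084-133681203 on the - strand (mm10, GENCODE M21). Both are coding.
Arid1b: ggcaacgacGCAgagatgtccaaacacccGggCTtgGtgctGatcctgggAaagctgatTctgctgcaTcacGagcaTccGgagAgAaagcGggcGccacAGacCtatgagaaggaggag
Arid1a: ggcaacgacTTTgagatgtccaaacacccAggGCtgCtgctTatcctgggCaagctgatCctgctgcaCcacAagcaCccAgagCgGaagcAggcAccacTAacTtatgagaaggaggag
The longest run without a difference between these coding sequences was 26 bases. None of the 12641 distinct 50-base words in the annotated Arid1b transcripts occurred in an Arid1a transcript, so a read that covers 50 bases of transcript without error can be told apart.

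Arid1b itself was the lowest of the 10 genes per length, and all 3 heterozygous libraries lay below both controls. The gene (ENSMUSG00000069729) spans 4994332 to 5347656 of chromosome 17 on the + strand. Its normalized counts were 1102, 1145 and 1003 in heterozygous libraries, against 1510 and 1730 in controls. The heterozygous values stood close together and did not overlap the control values. Group means were 1083 ± 72.6 (SD, n = 3) in heterozygous libraries and 1620 ± 155 (SD, n = 2) in controls, so the heterozygous mean was 66.9% of the control mean. Over all pairs of 1 heterozygous and 1 control library the percentage ran from 58.0 to 75.8. In limma the log2 fold change was -0.58 (95% interval -0.91 to -0.25, unadjusted), which corresponds to 53.3% to 84.0% of the control level. It did not pass the threshold of 0.05 (limma adjusted p = 0.0701). Neither did edgeR's quasi-likelihood test on the recovered reads (adjusted p = 0.0634), while DESeq2 did (adjusted p = 0.0073, log2 fold change -0.59). With control replicate 1 left out the limma log2 fold change was -0.68, and with control replicate 2 left out it was -0.48. These fits keep 1 control, whose spread is taken to be that of the heterozygous libraries.

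**Figure D1:**
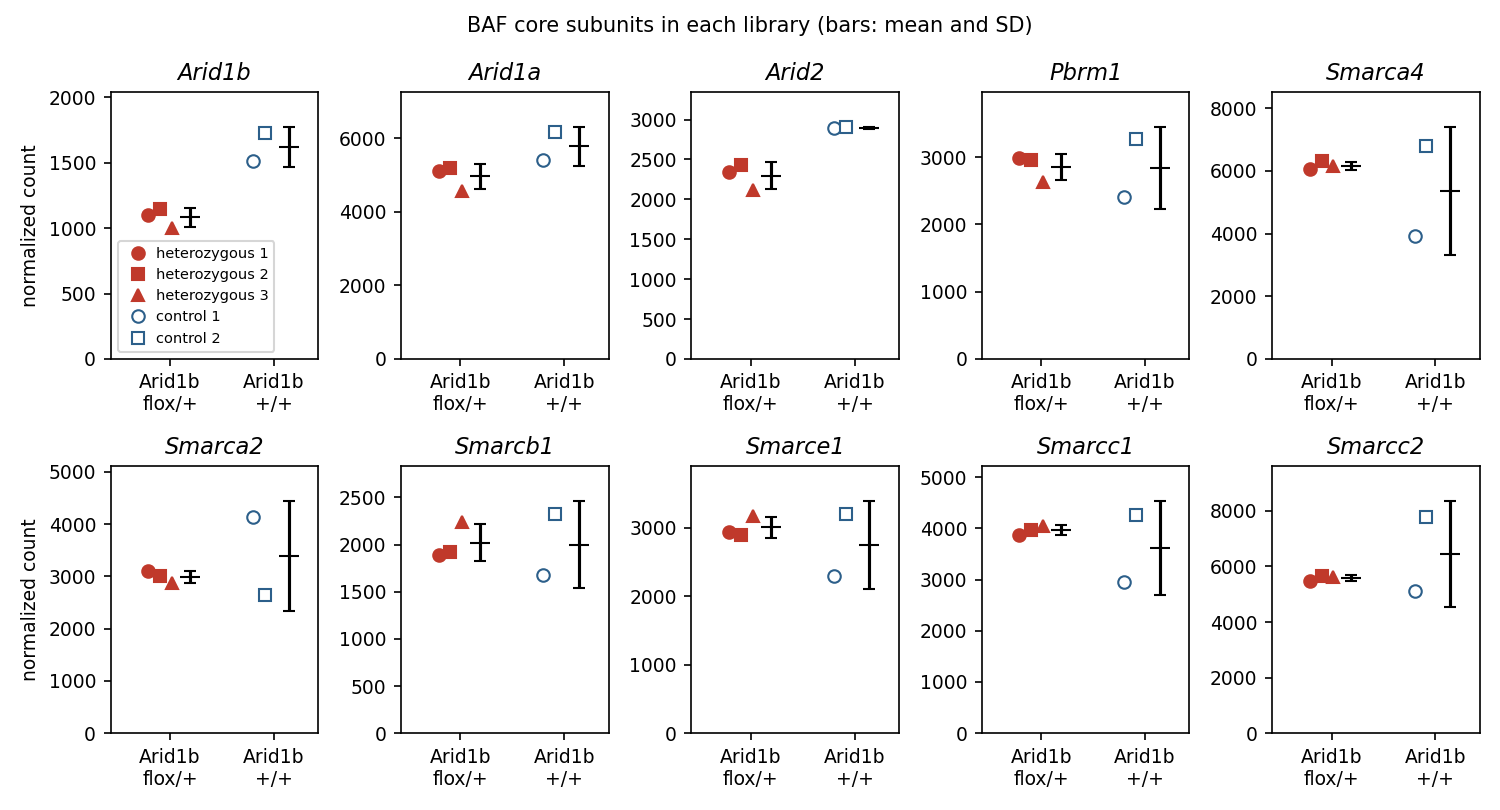
Normalized count (y axis, from 0) of each of the 10 subunits in the 3 heterozygous (Arid1b flox/+, filled) and 2 control (Arid1b+/+, open) libraries, with the mean and SD of each group beside the points. Heterozygous points lie below both control points for Arid1b, Arid1a and Arid2 and between the control points for the other 7 genes.

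Of the 10 subunits, limma called 0 in heterozygous libraries at an adjusted p of 0.05, where 2.84% of the 16411 tested genes were called, 1.9% higher and 0.944% lower. At an unadjusted p under 0.05 there were 2, Arid1b and Arid2, where 26.1% of tested genes had one. edgeR called 0 of the 10, where it called 2.49% of genes and 1.03% as lower. DESeq2 called Arid1b alone, as lower, where it called 14.4% of genes and 7.15% as lower. Fold changes were negative for 5 members and positive for 5, with a median log2 fold change of -0.06, beside 0.01 over all tested genes. Without control replicate 1 the members' median was -0.20, and without control replicate 2 it was 0.19.

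Arid1a, Arid1b and Arid2 were each lower in all 3 heterozygous libraries than in both controls. These 3 of 10 members are a share near the 23.3% of tested genes that showed that order, so the count says nothing particular about the subunits, and limma called none of the 3. None of the 10 was higher in all 3, where 23.4% of genes were, and 46.7% of genes had groups that did not overlap in either direction. Arid1a (chromosome 4 from 133679008 to 133756769, - strand), the alternative to Arid1b in canonical BAF, stood at normalized counts of 5117, 5206 and 4582 in heterozygous libraries, against 5416 and 6160 in controls. The gap between the groups was narrow, at 5206 for the highest heterozygous and 5416 for the lowest control library. Its log2 fold change was -0.22 (95% interval -0.54 to 0.10, limma adjusted p = 0.330), so the interval holds a decrease as well as a small increase. Arid2 (chromosome 15 from 96287518 to 96404992, + strand), the ARID subunit of PBAF, had 2345, 2436 and 2114 in heterozygous libraries, against 2888 and 2906 in controls. The controls were nearly equal here, and every heterozygous value lay below them. The log2 fold change of Arid2 was -0.34 (95% interval -0.63 to -0.04, limma adjusted p = 0.157), with -0.34 when control replicate 1 was omitted and -0.33 when control replicate 2 was. The last of these fits passed the threshold (limma adjusted p = 0.0412) where 50.7% of all genes did. In the same libraries 10 hypoxia-response genes summed to 36342, 34342 and 38687 in heterozygous libraries, against 129752 and 74093 in controls. limma called 8 of these 10 lower, where it called 0.944% of all tested genes lower. The part of these 10 genes in the ARID values was not tested.

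For the other 7 subunits all 3 heterozygous libraries lay between the controls, an arrangement that 18.2% of tested genes showed. The ATPase gene Smarca4 (chromosome 9 from 21616169 to 21704230, + strand) stood at normalized counts of 6048, 6303 and 6165 in heterozygous libraries, against 3915 and 6809 in controls. Control replicate 1 was low and control replicate 2 was the highest of the 5 libraries. Smarca2 (chromosome 19 from 26605050 to 26778322, + strand), the alternative ATPase, had 3101, 2997 and 2868 in heterozygous libraries, against 4131 and 2643 in controls, so here control replicate 1 was the highest. The log2 fold change was 0.26 for Smarca4 (95% interval -0.30 to 0.82, limma adjusted p = 0.505) and -0.15 for Smarca2 (-0.63 to 0.34, adjusted p = 0.662).

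The scaffold genes followed the order of Smarca4 among the controls. Smarcc1 (chromosome 9 from 110117708 to 110240178, + strand) stood at normalized counts of 3866, 3975 and 4054 in heterozygous libraries, against 2959 and 4263 in controls (log2 fold change 0.16, 95% interval -0.26 to 0.58, limma adjusted p = 0.584). Smarcc2 (chromosome 10 from 128459248 to 128490482, + strand) had 5472, 5668 and 5613 in heterozygous libraries, against 5103 and 7797 in controls (-0.18, 95% interval -0.64 to 0.29, limma adjusted p = 0.581). In Smarcc2 the heterozygous libraries stood nearer to the low control, and in Smarcc1 nearer to the high one. Annotated exons of Smarcc1 share 123 bases with Dhx30 on the opposite strand, and those of Pbrm1 share 15 bases with Gnl3, so a few reads may be shared if counting ignored the strand.

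Smarcb1, Smarce1 and Pbrm1 held the same pattern. Smarcb1 (chromosome 10 from 75896769 to 75921617, - strand), a core subunit that binds the nucleosome, had normalized counts of 1889, 1920 and 2243 in heterozygous libraries, against 1675 and 2326 in controls. Smarce1 (chromosome 11 from 99209047 to 99231017, - strand), a core subunit with an HMG domain, had 2945, 2896 and 3172 in heterozygous libraries, against 2292 and 3202 in controls. Pbrm1 (chromosome 14 from 31019138 to 31121592, + strand), the bromodomain subunit of PBAF, had 2982, 2951 and 2628 in heterozygous libraries, against 2403 and 3270 in controls. All 3 genes were lowest in control replicate 1 and highest in control replicate 2. Their log2 fold changes were 0.03 for Smarcb1 (95% interval -0.40 to 0.46, limma adjusted p = 0.931), 0.15 for Smarce1 (-0.26 to 0.56, adjusted p = 0.596) and 0.02 for Pbrm1 (-0.38 to 0.43, adjusted p = 0.937).

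The controls differed more from each other than the groups did in these 7 genes, as values between the controls require, and less in the 3 ARID genes. Control replicate 1 minus control replicate 2 on the log2 scale was -0.80 for Smarca4, 0.64 for Smarca2, -0.61 for Smarcc2 and between -0.44 and -0.53 for Smarcb1, Smarcc1, Smarce1 and Pbrm1. It was -0.20 for Arid1b, -0.19 for Arid1a and -0.01 for Arid2. Across all tested genes the control difference exceeded the group difference in 59.4%. The highest heterozygous value was at most 1.19 times the lowest in any of the 10 genes, and the ratio between the controls reached 1.74 for Smarca4. In the same libraries 8 markers of proliferating cells summed to 28831, 25621 and 29737 in heterozygous libraries, against 14716 and 41759 in controls, so the controls again lay on either side of the heterozygous libraries. Their part in the result was not tested. In bulk samples fewer cells of a type and less RNA per cell cannot be told apart.

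**Figure D2:**
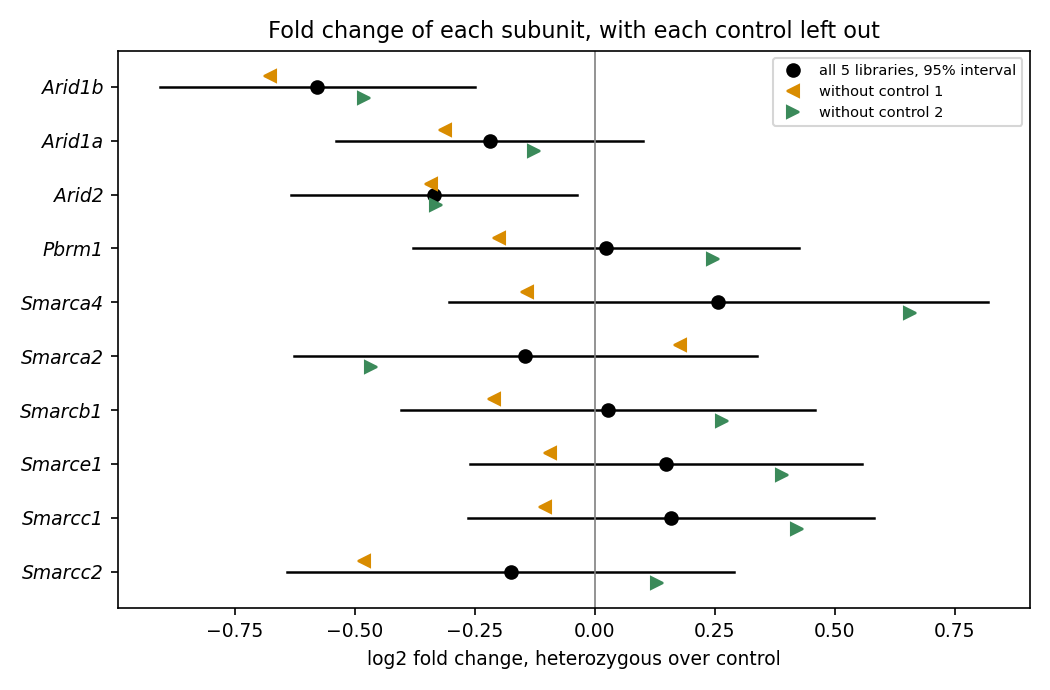
Log2 fold change of heterozygous over control (x axis) for each subunit, with all 5 libraries (black, line for the 95% interval) and with control 1 (orange) or control 2 (green) left out. Arid1b, Arid1a and Arid2 stay left of 0 in all 3 fits, and each of the other 7 genes changes side.

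For these 7 genes the heterozygous libraries lay between the controls, so the sign had to turn with the control that was kept. Without control replicate 1 the log2 fold changes were -0.14 for Smarca4, 0.18 for Smarca2, -0.21 for Smarcb1, -0.10 for Smarcc1, -0.48 for Smarcc2, -0.20 for Pbrm1 and -0.09 for Smarce1. Without control replicate 2 they were 0.66 for Smarca4, -0.47 for Smarca2, 0.26 for Smarcb1, 0.42 for Smarcc1, 0.13 for Smarcc2, 0.25 for Pbrm1 and 0.39 for Smarce1. limma then called Arid1b and Smarcc2 lower without control replicate 1, where 16.8% of all genes were called. Without control replicate 2 it called Arid1b, Arid2 and Smarca2 lower and Smarca4, Smarcc1 and Smarce1 higher, where 50.7% were called.

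Shares of paralogues within a library do not depend on the scaling between libraries. Per kb of annotated exon, Arid1b made up 16.4%, 16.7% and 16.6% of the sum of Arid1a and Arid1b in heterozygous libraries, against 20.3% and 20.4% in controls. The share was nearly the same in both controls, although these differed elsewhere, and the groups did not overlap. The means were 16.6 ± 0.15% (SD, n = 3) in heterozygous libraries and 20.3 ± 0.08% (SD, n = 2) in controls. The difference was -3.74 percentage points (exact two-sided permutation test p = 0.2). This test doubles the one-sided p, so 0.2 is the smallest p that the 10 splits of 3 and 2 libraries allow. Leaving out any 1 library gave differences of -3.65 to -3.80. As plain shares of reads, Arid1b took 17.7% (1035 of 5841 reads, 95% Wilson interval 16.8 to 18.7), 18.03% (17.2 to 18.9) and 17.97% (17.0 to 19.0) in heterozygous libraries. In controls it took 21.8% (20.8 to 22.9) and 21.9% (21.1 to 22.8), so no heterozygous interval overlapped a control interval. These intervals cover counting error only.

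Relative to the mean log2 value of the other 9 subunits, Arid1b stood at -1.67, -1.63 and -1.79 in heterozygous libraries, against -1.08 and -1.21 in controls. The groups did not overlap on this measure, which also does not depend on the scaling. The difference was -0.55 (exact two-sided permutation test p = 0.2, again the smallest possible), and -0.49 and -0.61 without control replicates 1 and 2. The sum of Arid1a and Arid1b, in RPKM (recovered reads per kb of exon, scaled to the library total), was 23.7, 24.3 and 21.0 in heterozygous libraries, against 25.6 and 29.3 in controls. It was thus also lower in every heterozygous library, with a difference of -4.48 between the means (exact two-sided permutation test p = 0.2). It was -6.30 with control replicate 1 omitted and -2.66 with control replicate 2 omitted.

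The scaffold pair also stood apart between groups within libraries, and the ATPase pair did not. Smarcc2 made up 66.6%, 66.8% and 66.1% of the sum of Smarcc1 and Smarcc2 per kb in heterozygous libraries, against 70.9% and 72.1% in controls. The groups did not overlap, and the difference was -4.95 percentage points (exact two-sided permutation test p = 0.2, the smallest possible), with -4.35 to -5.54 when 1 library was left out. Smarca2 made up 18.9%, 17.7% and 17.4% of the sum of Smarca4 and Smarca2 in heterozygous libraries, against 32.4% and 15.0% in controls. Here the controls lay on either side of the heterozygous libraries (difference -5.66 percentage points, exact two-sided permutation test p = 0.8, and 3.04 without control replicate 1). These 3 shares, the position of Arid1b among the subunits and the Arid1a and Arid1b sum were the 5 measures computed per library. Only the sum depends on the scaling to the library total. None of the 5 could pass a threshold of 0.05 before or after adjustment.

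**Figure D3:**
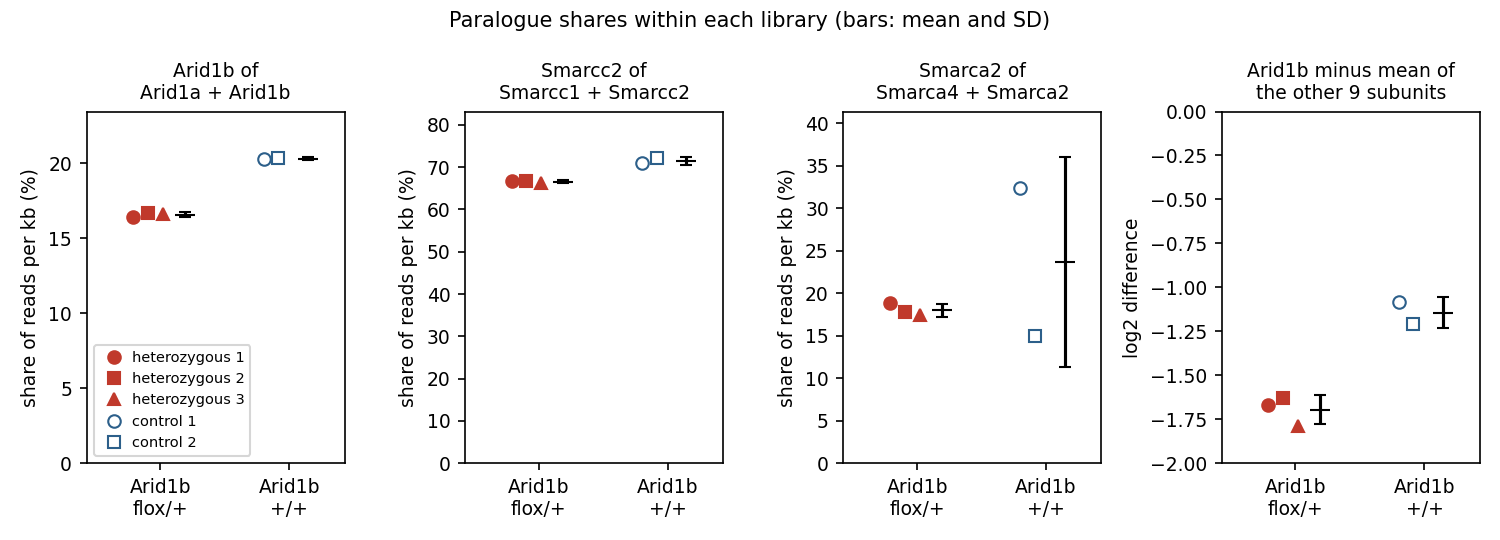
Share of each paralogue within its pair per kb of exon (y axis, percent, from 0) and, at the right, the log2 value of Arid1b minus the mean of the other 9 subunits, for the 3 heterozygous (filled) and 2 control (open) libraries with mean and SD. The Arid1b and Smarcc2 shares are lower in all heterozygous libraries, while the controls lie at 32.4% and 15.0% for Smarca2.

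Windows of the scaffold pair show how far these transcripts can be told apart as well. Of 120 bases in exon 25 of each gene, 104 are identical and the 16 capitals differ, at chr10:128485560-128485679 for Smarcc2 and chr9:110213509-110213628 for Smarcc1 (mm10, both + strand, coding).
Smarcc2: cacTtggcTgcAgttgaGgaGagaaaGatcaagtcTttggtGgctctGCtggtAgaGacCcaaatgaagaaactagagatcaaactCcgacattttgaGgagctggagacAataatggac
Smarcc1: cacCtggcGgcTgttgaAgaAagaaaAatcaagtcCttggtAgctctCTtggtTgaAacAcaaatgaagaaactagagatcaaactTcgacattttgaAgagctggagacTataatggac
No 50-base word was shared between the annotated transcripts of Smarcc2 and Smarcc1, or between those of Smarca2 and Smarca4.

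Per length, the order of the genes was alike in both groups at its ends. In RPKM, Smarcc2 was highest at 44.5 ± 0.92 in heterozygous libraries (SD, n = 3) and 50.4 ± 15.0 in controls (SD, n = 2). Smarca4 followed with 42.2 ± 1.08 in heterozygous libraries and 35.9 ± 13.8 in controls, and the ranges of both genes overlapped among the controls. Smarcc1 (22.4 ± 0.41), Smarce1 (20.0 ± 0.77), Arid1a (19.2 ± 1.49), Pbrm1 (14.3 ± 1.12) and Smarcb1 (11.3 ± 0.98) came next in heterozygous libraries. Arid2 (9.48 ± 0.78) and Smarca2 (9.28 ± 0.44) overlapped each other there, as did Smarce1 and Arid1a, and the remaining neighbours did not. Arid1b was lowest at 3.81 ± 0.29 in heterozygous libraries and 5.58 ± 0.54 in controls, apart from its neighbour Smarca2 in both groups. Arid1a was the third highest by its control mean, at 21.9 ± 2.03, and the fifth in heterozygous libraries. These levels rest on the annotated exon length of each gene, which counts the exons of all its transcripts.

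Genes next to Arid1b were measured as a check of the locus. Within 1 Mb of its annotated start, 5 protein-coding genes begin, and 4 of them were tested. None of the 4 was called, and for none were the groups apart. Tmem242, which starts 445927 bases away, had normalized counts of 2036, 2047 and 2455 in heterozygous libraries, against 2149 and 1827 in controls (log2 fold change 0.13, limma adjusted p = 0.592). Zdhhc14, a palmitoyltransferase gene, had a log2 fold change of -0.15 (limma adjusted p = 0.675), Snx9, a sorting nexin, of 0.04 (adjusted p = 0.867) and Synj2, an inositol phosphatase, of -0.14 (adjusted p = 0.639). The sign turned for Snx9 (-0.05) and Synj2 (0.12) without control replicate 1 and for Zdhhc14 (0.13) without control replicate 2. The fifth gene, Ldhal6b, had no reads in any library.

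Of 21 other subunits of BAF, PBAF and the non-canonical complex, all tested, Actl6b rose, Bcl7a fell and 19 did not pass, where 2.84% of all tested genes were called. Their median log2 fold change was -0.04, beside 0.01 over all tested genes. Actl6b, the actin-like subunit of neuronal BAF, had normalized counts of 448, 348 and 322 in heterozygous libraries, against 170 and 170 in controls (log2 fold change 1.12, SE 0.20, limma adjusted p = 0.0486). Its heterozygous values spread, but the lowest was well above both controls. DESeq2 also called it (adjusted p = 0.00029), where it called 14.4% of genes. The call was lost in edgeR (adjusted p = 0.0532) and in limma with quantile normalization (0.0524), library weights (0.169) or the replicate block (0.170). In the same libraries 12 neuron markers summed to 55972, 45447 and 41731 in heterozygous libraries, against 21619 and 30521 in controls. limma called 7 of the 12 higher, where it called 1.9% of all tested genes higher. Map2, the most abundant in the sum (log2 fold change 0.25, limma adjusted p = 0.475), and Elavl4 (0.10) had overlapping groups and were not called. The part of neuron content in the Actl6b result was not tested.

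Bcl7a, an accessory subunit, had normalized counts of 1338, 1506 and 1375 in heterozygous libraries, against 2737 and 2330 in controls (log2 fold change -0.85, SE 0.14, limma adjusted p = 0.0410). Brd9, the bromodomain subunit of the non-canonical complex, had 1434, 1408 and 1349 in heterozygous libraries, against 2231 and 1935 in controls (-0.57, SE 0.13, adjusted p = 0.0645). Bicra, also of that complex, was at -0.43 (SE 0.14, limma adjusted p = 0.128). For these 3 genes the groups did not overlap. DESeq2 called Brd9 lower (adjusted p = 0.0069), where it called 7.15% of genes lower, and edgeR did not (adjusted p = 0.0632). The 19 that did not pass in limma included 6 more with an unadjusted p under 0.05, with negative fold changes for Dpf2, Brd9 and Bicra and positive ones for Dpf3, Bcl11a and Bcl11b. That makes 8 of 21, where 26.1% of all tested genes had one. The calls of Actl6b and Bcl7a were lost when any 1 heterozygous library was left out (adjusted p = 0.192 to 0.233), which leaves 2 libraries a group. limma then called at most 1 gene of all those tested. Bcl7a was also lost in limma with library weights (adjusted p = 0.106) and with the replicate block (0.182).

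**Figure D4:**
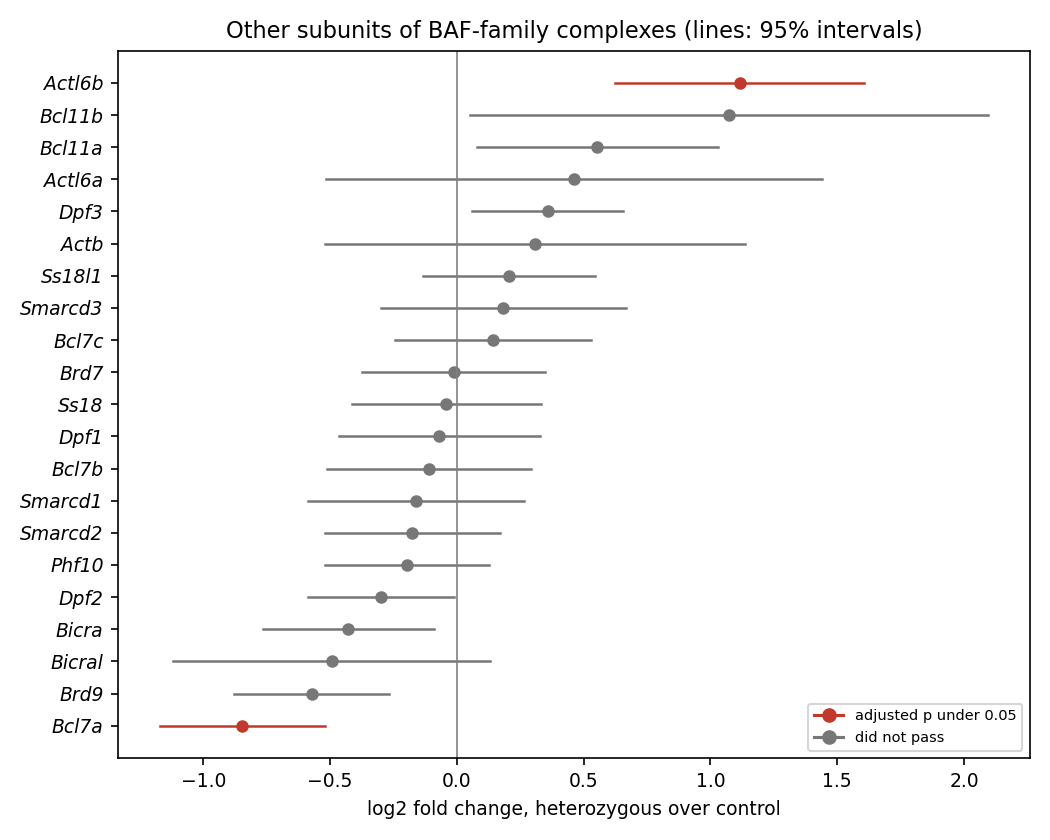
Log2 fold change of heterozygous over control (x axis) for 21 other subunits of BAF-family complexes, with unadjusted 95% intervals as lines. Actl6b (1.12) and Bcl7a (-0.85), in red, passed the adjusted threshold and the other 19, in grey, did not.

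Of 10 genes with an ARID domain outside these complexes 9 were tested, and limma called 0, as did edgeR and DESeq2. An unadjusted p under 0.05 was found for 3 of the 9 (Jarid2, Kdm5a and Kdm5b), where 26.1% of all tested genes had one. Their median log2 fold change was -0.39, beside 0.01 over all tested genes, and in 4 of 9 the heterozygous libraries all lay below the controls, where 23.3% of all tested genes did. Jarid2, a Polycomb cofactor, had normalized counts of 998, 1001 and 930 in heterozygous libraries, against 1186 and 1387 in controls (log2 fold change -0.39, SE 0.14, limma adjusted p = 0.139). Kdm5a, a histone H3 demethylase, had 1730, 1780 and 1474 in heterozygous libraries, against 3094 and 1948 in controls (-0.57, SE 0.22, adjusted p = 0.167), so its fold rested largely on control replicate 1.

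Among 12 ATPase genes of other remodeller families 1 fell, 0 rose and 11 did not pass, where 0.944% of all tested genes were called lower and 2.84% either way. The median log2 fold change was -0.10. Chd7, a CHD-family remodeller, had normalized counts of 2563, 2583 and 2381 in heterozygous libraries, against 4859 and 4541 in controls (log2 fold change -0.91, SE 0.12, limma adjusted p = 0.0322). Unlike the 7 subunits above, its controls were close together, and it was -0.86 and -0.95 without control replicates 1 and 2. Its call was kept in edgeR (adjusted p = 0.0341) and DESeq2 (adjusted p = 2.2e-07), where 1.03% and 7.15% of genes were called lower. It was lost in limma when 1 heterozygous library was left out (adjusted p = 0.184 to 0.220), where limma called at most 1 gene of all those tested. Library weights (0.0689) and the replicate block (0.157) lost it too. The oligodendrocyte-lineage and astrocyte marker lists had negative medians, like the fold changes of Chd7 and Bcl7a, though their markers went both ways. Of 10 oligodendrocyte-lineage markers, 6 were below both controls in all heterozygous libraries and 1, Pdgfra (log2 fold change 0.41), was above both. Of all tested genes, 23.3% lay below and 23.4% above. The median log2 fold change of the list was -0.96, and limma called Sox10 lower (-1.40, limma adjusted p = 0.0355). The sums of the 10 markers were 60682, 70631 and 76856 in heterozygous libraries and 63546 and 92760 in controls. The most abundant, Olig1 (0.33) and Olig2 (0.38), had positive fold changes and overlapping groups. Of 8 astrocyte markers, 4 were below both controls and 1, S100b (0.34), was above both, beside the same 23.3% and 23.4% of all tested genes. The median was -0.35, Aldh1l1 was at 0.00, and limma called Aqp4 lower (-1.35, limma adjusted p = 0.0427). The sums of the 8 markers were 89573, 91147 and 74962 in heterozygous libraries and 133601 and 105558 in controls. No marker of either list was at 0, and the part of these cell types in the Chd7 and Bcl7a values was not tested. Chd3, an ATPase of the NuRD complex, was at 0.50 (SE 0.20, limma adjusted p = 0.178).

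The genes whose profile over the 5 libraries was most like that of Arid1b were sought among 13039 other genes with a mean of at least 50. Likeness was the root mean square distance between centred log2 values. The nearest were Zfp329, a zinc finger gene (0.038), Nebl, a nebulin-related gene (0.039), Gas2l3 (0.041), the long non-coding RNA gene AU020206 (0.042) and Reep3 (0.043), where the median gene was at 0.380. Among the subunits Arid2 was nearest (0.133, rank 281), then Arid1a (0.176, rank 781), and the other 7 lay at 0.246 (Smarcc2) to 0.456 (Smarca4). Zfp329 had normalized counts of 792, 864 and 745 in heterozygous libraries, against 1124 and 1214 in controls. With 5 libraries these distances describe the libraries only.

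The authors' deposited table, made from the same libraries, placed Arid1b at -0.56 on the log2 scale (DESeq2 adjusted p = 0.0200), and it called 5.99% of genes lower. For the other 9 subunits the authors' deposited table held log2 fold changes from -0.32 (Arid2, adjusted p = 0.201) to 0.19 (Smarca4, adjusted p = 0.684), none of them past the threshold.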

How the data were processed

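STAR, DESeq2 and the build mm10 are named in the submitters' processing notes. The sources used here do not give versions, annotation, counting tool or strandedness. Each library's deposited column is a normalized signal, that is, gene counts divided by 1 size factor per library, since 100% of values were whole reads within 0.001 read. Beside these columns the authors deposited a log2 fold change, its standard error and Wald statistic (each a score), p-value and adjusted p-value, of which only the fold change and adjusted p-value are quoted.

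log2(value + 1) was tested with limma 3.58.1 (R 4.3.3) with an intensity trend, two-sided, Benjamini-Hochberg adjusted over 16411 genes (mean normalized count 10 or more). Such fold changes understate those of low genes. edgeR 4.0.16 and DESeq2 1.42.0 on the recovered reads were alternatives. Exon lengths, coordinates and transcript sequences came from GENCODE M21 (mm10), which may not be the authors' annotation. Of 54532 gene IDs, 54495 matched it. No library column was left unused. The members and lists were chosen with earlier results of these data known. Named genes were the 10 members, called genes and those with the smallest p in each list, the neighbours of Arid1b and its 5 nearest profiles.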

Additional observations from a re-analysis of the deposited data

How the results depend on the processing

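Arid1b kept its negative sign in every alternative run, which its groups, being apart, fixed for the runs with 1 library left out. Its log2 fold changes were -0.48 to -0.68, with adjusted p of 0.0073 to 0.354. It passed with DESeq2 (-0.59). The fits without control replicate 1 (-0.68) or 2 (-0.48) keep 1 control. Counts of called genes (311 higher, 155 lower) became 1174 and 1151 with DESeq2, 79 and 38 with library weights, and ran from 0 to 4465 higher and 0 to 3855 lower with 1 library left out. They were 1512 and 1250 without control replicate 1 and 4465 and 3855 without control replicate 2. Without heterozygous replicates 1, 2 and 3 limma called 0 genes higher and 1, 1 and 0 lower, with 2355, 2586 and 2681 at an unadjusted p under 0.05. Without any filter they were 433 and 228. Pseudocount, the filter of 50, TMM, quantile normalization and edgeR (240 and 169) kept both counts within 1.5 times. Across these scalings the median of all genes moved by less than 0.1.

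Where the heterozygous mean lay between the controls, the sign had to turn with the control that was kept. Without control replicate 1 and without control replicate 2, log2 fold changes were -0.14 and 0.66 for Smarca4, 0.18 and -0.47 for Smarca2, -0.21 and 0.26 for Smarcb1, -0.10 and 0.42 for Smarcc1, -0.48 and 0.13 for Smarcc2, -0.20 and 0.25 for Pbrm1, and -0.093 and 0.39 for Smarce1. For the genes near Arid1b they were -0.42 and 0.13 for Zdhhc14, 0.12 and -0.39 for Synj2, and -0.048 without control replicate 1 for Snx9. The Smarca2 share differed by 3.04 and -14.4 percentage points. Near 0, Smarcb1 turned with library weights (-0.0155) and without heterozygous replicate 3 (-0.05), Snx9 without heterozygous replicate 3 (-0.03), and Pbrm1 with edgeR (-0.0014) and without heterozygous replicate 1 (-0.0096) or 2 (-0.0019). The causes were not tested. Alternatives for the Arid1a and Arid1b sum and for Arid1b relative to the other subunits were chosen after seeing the data and kept the sign. Without length correction the shares differed by -3.96 (Arid1b), -5.49 (Smarcc2) and -7.03 (Smarca2) percentage points.

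With the replicate number as a block, 0 genes were called higher and 1 lower (2450 at an unadjusted p under 0.05), and Arid1b was at -0.52 (adjusted p = 0.354), Smarcb1 at -0.0513 and Snx9 at -0.0324. Blocked differences were -3.77 points for the Arid1b share, -4.75 for Smarcc2 and -5.37 for Smarca2. Deviations of same-numbered libraries from their group means correlated at 0.028 and -0.040 across genes. The deviations of the controls are mirror images of each other. These correlations therefore cannot show whether same-numbered libraries shared more than the number. Arid1b, the lowest of the 10 per length, had at least 1030 reads in every library. With library weights and with the block, limma also lost Actl6b, Bcl7a and Chd7.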
